A study of Mus musculus with 11 samples.

Results

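The genes described here are 10 genes of the Notch pathway and of secretory cell fate in the intestine: the transcription factor genes Hes1, Hes6 and Atoh1, the receptor genes Notch1 and Notch2, the ligand genes Dll1, Dll4 and Jag1, the feedback inhibitor gene Nrarp, and Rbpj, which encodes the DNA-binding partner of cleaved Notch. They were chosen by symbol, and every probe that the platform annotation gave to one of these symbols was read, 16 probes of 45281 on the array. A probe counted as measured when its detection p, the array software's comparison with negative control beads, was under 0.01 on 5 or more arrays. By this rule 7 of the 16 probes and 5 of the 10 genes (Hes1, Hes6, Notch1, Dll1 and Nrarp) were measured, against 14203 of 45281 probes and 8234 of 19057 named genes in the whole series.

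Total RNA of small intestinal villi was hybridised to Illumina bead arrays, with each sample on an array of its own. The 5 Villin-Gremlin arrays came from mice that carry a Gremlin transgene driven by the Villin promoter. Gremlin is secreted and blocks BMPs, the bone morphogenetic proteins, and the promoter works in intestinal epithelium, so Gremlin has an epithelial source in this model. The 6 wild type arrays came from mice without it, and all mice were C57Bl/6J and 5 months old. The labels do not say whether every array held RNA of a different mouse. The p-values therefore describe the scatter among these arrays, part of which may be technical.

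Notch receptors and their ligands are both held in cell membranes, so the signal passes between touching cells. Ligand binding exposes the receptor to cleavage, first by an ADAM protease and then by gamma-secretase, and the freed intracellular part joins Rbpj and a Mastermind protein on DNA and switches on genes such as Hes1. In the intestinal crypt, cells with active Notch make Hes1, which represses Atoh1, and become absorptive, while cells that keep Atoh1 express Delta ligands and take secretory fates (goblet, Paneth, enteroendocrine).

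Median raw signal per array ran from 157 on Villin-Gremlin 5 to 207 on Villin-Gremlin 4, so raw signals are given beside values normalized between arrays. On the second principal component of all measured genes, Villin-Gremlin 5 (-27.83) and wild type 1 (-27.85) were far from the rest of their groups. Some results that rest on either array are also given without it. Of 10 listed epithelial genes 9 were measured, 1 of which rose and 2 fell. The keratin gene Krt19 rose by 2.29, while Vil1 (villin, 14.24 ± 0.15 in Villin-Gremlin and 14.58 ± 0.14 in wild type villi, log2, SD, n = 5 and 6) and the keratin gene Krt20 fell by 0.34 and 0.47 (limma adjusted p = 6.92e-06, 0.0330 and 0.00501). The probe of Fabp2, the intestinal fatty acid binding protein, was not above background on any array. Of 8 probes of Y-linked genes, 3 were above background on Villin-Gremlin 1 and on wild type 3, and at most 1 on the other arrays. Of 8234 genes tested with limma, 33.9% changed at an adjusted p under 0.05 (Benjamini-Hochberg over all genes), 17.9% higher and 16% lower in Villin-Gremlin villi. Of the 5 measured members 2 rose, Hes1 and Hes6, and 0 fell. Counted in either direction, the share of members that changed was close to that of all genes. Groups did not overlap for 1 of the 5, Hes1, beside 20.5% of all genes. Their median log2 fold change, Villin-Gremlin minus wild type, was 0.24, against 0.00 over all genes. In bulk villi, fewer cells of a type and less RNA per cell cannot be told apart.

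Hes1, the transcriptional repressor that Notch induces in absorptive progenitors, was higher in Villin-Gremlin villi. Its only probe, ILMN_1247691, had raw signals of 657, 876, 644, 1023 and 680 on Villin-Gremlin arrays 1 to 5, and of 417, 649, 348, 444, 418 and 533 on wild type arrays 1 to 6. In raw signal, wild type 2 was thus slightly brighter than Villin-Gremlin 3. After background correction and quantile normalization the values were 9.07, 9.33, 9.46, 9.28 and 9.70 in Villin-Gremlin villi, against 7.70, 8.68, 7.70, 8.40, 8.02 and 8.52 in wild type villi (log2). The groups no longer overlapped: the lowest Villin-Gremlin array lay above the highest wild type array, as 10.9% of all tested genes did. Villin-Gremlin 5 was the highest and wild type 1 among the lowest. Hes1 averaged 9.37 ± 0.23 in Villin-Gremlin and 8.17 ± 0.42 in wild type villi (SD, n = 5 and 6), a 2.30-fold rise (log2 fold change 1.20 ± 0.20 SE, 95% interval 0.77 to 1.63, limma adjusted p = 5.56e-04). Without Villin-Gremlin 5 and wild type 1 the log2 fold change was 1.02 (limma adjusted p = 0.00253). In absolute size the change ranked at the 92.7th percentile of all tested genes.

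**Figure D1:**
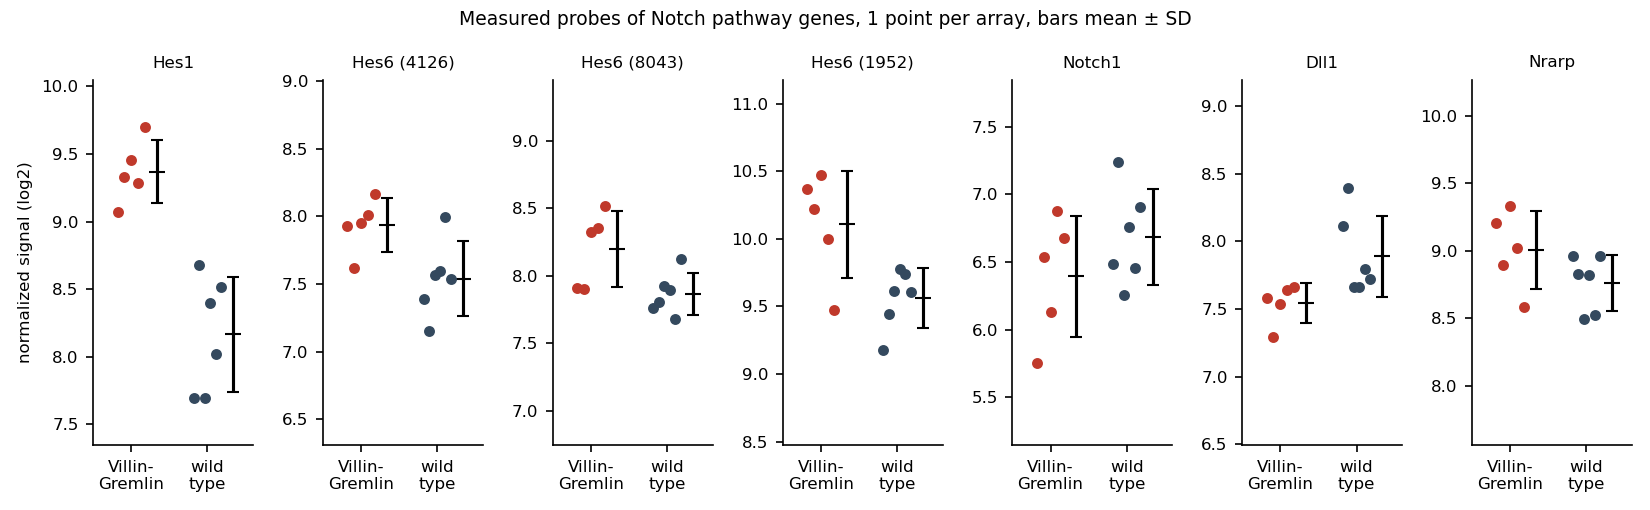
Normalized signal (log2, vertical axis) of the 7 measured probes, 1 panel per probe and 1 point per array, with Villin-Gremlin on the left and wild type on the right and bars for mean ± SD; digits in brackets are the end of the probe ID, and every panel spans the same number of log2 units. The Hes1 points of the groups lie apart, from 9.07 to 9.70 in Villin-Gremlin and from 7.70 to 8.68 in wild type villi, while the points of all other panels overlap.

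Hes6, a relative of Hes1 that is known to counter Hes1 and to favour differentiation in neural cells, had 3 probes, all above background on all 11 arrays. The brightest, ILMN_2791952, which stood for the gene, had raw signals of 1417, 1454, 1154, 1555 and 602 on Villin-Gremlin arrays 1 to 5, against 855, 999, 878, 918, 1044 and 954 on wild type arrays 1 to 6. Of the Villin-Gremlin arrays, 4 were brighter than every wild type array and Villin-Gremlin 5 was dimmer than every one. After normalization the values were 10.37, 10.22, 10.47, 9.996 and 9.47 in Villin-Gremlin villi, against 9.17, 9.44, 9.62, 9.77, 9.74 and 9.61 in wild type villi (log2). The same 4 arrays stayed above all wild type arrays, and Villin-Gremlin 5 lay within the wild type range. The gene rose by a log2 of 0.55 ± 0.18 SE (1.46-fold, 95% interval 0.16 to 0.94, limma adjusted p = 0.0316). Without Villin-Gremlin 5 the log2 fold change was 0.71 (adjusted p = 0.00335), and without it and wild type 1 it was 0.63 (limma adjusted p = 0.00419). The call was close to the threshold: it was lost without Villin-Gremlin 1, 2 or 3 or without wild type 1 or 2 (adjusted p = 0.0783, 0.0652, 0.0823, 0.0611 and 0.0608), and with median scaling (0.150).

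The other Hes6 probes were dimmer and did not pass on their own. ILMN_1214126 had raw signals of 378, 385, 317, 525 and 337 on Villin-Gremlin arrays, against 368, 332, 330, 318, 414 and 348 on wild type arrays, and a log2 fold change of 0.40 ± 0.15 SE (limma adjusted p = 0.0679 over 14203 measured probes, of which 30.8% passed). ILMN_2608043 had 375, 432, 370, 620 and 387 on Villin-Gremlin arrays, against 429, 426, 380, 357, 360 and 443 on wild type arrays, and a log2 fold change of 0.33 ± 0.14 SE (limma adjusted p = 0.0956). In this probe-wise fit the brightest probe kept its call (0.55 ± 0.18 SE, limma adjusted p = 0.0360). On both dimmer probes Villin-Gremlin 5 had the highest normalized value of all arrays, 8.17 and 8.52, whereas on the brightest probe it was the lowest of its group. The 3 probes thus gave the same sign and ordered Villin-Gremlin 5 differently. With the mean of the 3 probes, the log2 fold change was 0.43 ± 0.11 SE (limma adjusted p = 0.00995).

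**Figure D2:**
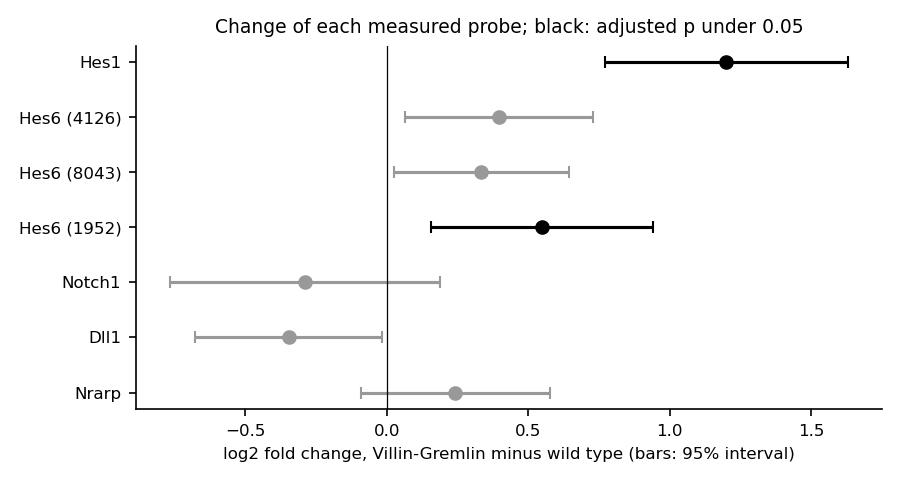
Log2 fold change (Villin-Gremlin minus wild type, horizontal axis) of each measured probe with its 95% interval, from the limma fit over all measured probes; black marks an adjusted p under 0.05 and grey one above it. Hes1 at 1.20 and the brightest Hes6 probe at 0.55 are black, while the grey Dll1 and Notch1 points lie below 0.

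Nrarp, a direct Notch target whose product dampens Notch signalling, was above background on all arrays. Its probe, ILMN_2596979, had raw signals of 708, 691, 602, 887 and 398 on Villin-Gremlin arrays, against 763, 707, 490, 541, 531 and 666 on wild type arrays. Normalized, these were 9.20, 8.89, 9.33, 9.02 and 8.58 in Villin-Gremlin villi, against 8.96, 8.83, 8.50, 8.82, 8.53 and 8.96 in wild type villi (log2). Villin-Gremlin 1, 3 and 4 lay above all wild type arrays and the other two within their range. The log2 fold change was 0.24 ± 0.15 SE (95% interval -0.09 to 0.57, limma adjusted p = 0.242) and did not pass the test. Without Villin-Gremlin 5 and wild type 1 it was 0.39 (limma adjusted p = 0.0578). The upper bound of its interval lies below the lower bound of the Hes1 interval, though the difference between the genes was not tested.

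Promoter sequences are shown for Hes6, the gene with a call among those with an entry in the promoter table, and for Nrarp, the other measured Notch effector with an entry. Both come from RefSeq (GRCm38.p6) and run from 250 bases before to 50 after the annotated start, 5′ to 3′ on the gene's strand. Capitals mark the motif CACNAG, the N box that Hes factors bind, on either strand.
Hes6, the downstream of its 2 annotated starts, chr1:91413173-91413472, minus strand: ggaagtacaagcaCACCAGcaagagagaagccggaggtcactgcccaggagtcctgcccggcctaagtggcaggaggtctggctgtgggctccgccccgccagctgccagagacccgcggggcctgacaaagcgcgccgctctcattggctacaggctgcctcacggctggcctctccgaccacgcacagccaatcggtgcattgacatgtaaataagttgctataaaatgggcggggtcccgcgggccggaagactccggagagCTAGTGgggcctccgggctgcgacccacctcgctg
Nrarp, chr2:25180508-25180807, plus strand: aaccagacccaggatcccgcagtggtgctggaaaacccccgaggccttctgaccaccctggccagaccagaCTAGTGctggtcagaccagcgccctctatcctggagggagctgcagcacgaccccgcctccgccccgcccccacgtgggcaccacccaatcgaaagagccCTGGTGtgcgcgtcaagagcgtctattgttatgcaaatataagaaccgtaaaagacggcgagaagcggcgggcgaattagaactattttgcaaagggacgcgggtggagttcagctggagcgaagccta
The Hes6 window held the N box at bases -237 and 16 from the start and the Nrarp window at bases -179 and -79. Neither held TGGGAA, the core of the Rbpj site, and the other Hes6 start had neither motif. Of the 12 promoters of 9 members in the table, 7 held CACNAG and 2, both of Rbpj, held TGGGAA, against 42.5% and 25.6% of all 32851 promoters of the same length. The Rbpj windows overlap, and the match at base -65 of the first is the same site as that at -205 of the second. At the Notch1 start 2 CACNAG matches on opposite strands overlapped, at bases -3 and -1, and no TGGGAA overlapped a CACNAG in these windows. A match is a description of the letters, not of binding.

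Among the ligands, Dll1, which secretory progenitors present to their neighbours, was measured and was not called. Its probe, ILMN_2721188, had raw signals of 327, 342, 276, 446 and 280 on Villin-Gremlin arrays, against 499, 562, 342, 325, 379 and 374 on wild type arrays. Normalized values were 7.58, 7.29, 7.54, 7.64 and 7.66 in Villin-Gremlin villi, against 8.11, 8.39, 7.66, 7.66, 7.80 and 7.72 in wild type villi (log2). The groups met at 7.66, where the highest Villin-Gremlin array and the lowest wild type arrays lay. Wild type 1 and 2 stood above the other wild type arrays. The log2 fold change was -0.35 ± 0.15 SE (95% interval -0.67 to -0.02, limma adjusted p = 0.0943), and it was -0.25 without wild type 2.

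Dll4, the other Delta ligand of intestinal secretory cells and also one of endothelial tip cells, was not above background on any array with either probe. ILMN_1249195 read 149 to 191 in Villin-Gremlin and 163 to 220 in wild type villi (raw signal), with detection p from 0.0171 to 0.517. ILMN_1250828 read 159 to 200 in Villin-Gremlin and 181 to 209 in wild type villi, with detection p from 0.0459 to 0.453. The lowest detection p of both probes belonged to wild type 6. Jag1, the ligand of the Jagged family, had 1 probe, ILMN_1257077, which read 145 to 235 in Villin-Gremlin and 162 to 200 in wild type villi. Its detection p ran from 0.0235 to 0.581 and was lowest on Villin-Gremlin 2 and 4. A fold is not given for genes below background in both groups.

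Of the receptors, Notch1, which with Notch2 keeps crypt progenitors undifferentiated, was measured close to background. Its probe, ILMN_1241915, had raw signals of 200, 268, 197, 333 and 212 on Villin-Gremlin arrays, against 273, 342, 225, 245, 247 and 280 on wild type arrays. The probe passed detection on 4 of 5 Villin-Gremlin arrays (Villin-Gremlin 1 had a detection p of 0.0374) and on 6 of 6 wild type arrays. Normalized values were 5.76, 6.53, 6.13, 6.87 and 6.68 in Villin-Gremlin villi, against 6.49, 7.24, 6.26, 6.76, 6.45 and 6.91 in wild type villi (log2). The groups overlapped, and the log2 fold change of -0.29 ± 0.22 SE (95% interval -0.76 to 0.18, limma adjusted p = 0.337) did not pass the test. It was -0.10 without background correction, and -0.41 (without Villin-Gremlin 4) to -0.13 (without Villin-Gremlin 1) when single arrays were left out, and passed in none of these fits. Both Notch2 probes were below background on all arrays, with raw signals of 144 to 179 in Villin-Gremlin and 152 to 170 in wild type villi for ILMN_2678002, and of 150 to 188 in Villin-Gremlin and 152 to 176 in wild type villi for ILMN_2980247. Their lowest detection p was 0.358.

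Rbpj, through which all Notch receptors reach DNA, had 3 probes and Atoh1, the factor that commits cells to secretory fates, had 1, and none was above background on any array. The Rbpj probes ILMN_2588315, ILMN_2648536 and ILMN_2772508 read 147 to 218, 146 to 227 and 138 to 186 in Villin-Gremlin villi, against 171 to 194, 153 to 197 and 147 to 164 in wild type villi. On all 3 the brightest array was Villin-Gremlin 4, which also had the highest median raw signal. The Atoh1 probe ILMN_2767705 read 151, 171, 160, 190 and 137 on Villin-Gremlin arrays, against 182, 166, 151, 149, 171 and 164 on wild type arrays, with detection p from 0.333 to 0.934. Probe signals at this level do not show whether the transcripts were absent or below what these probes can measure.

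**Figure D3:**
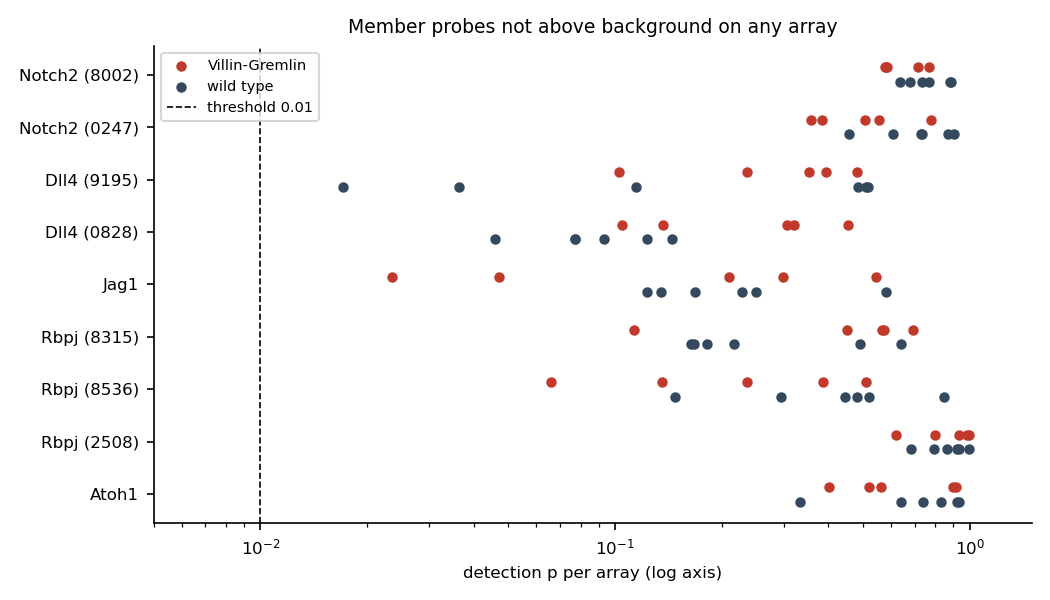
Detection p on each array (log axis) for the 9 member probes below background, with Villin-Gremlin points above wild type points for each probe and a dashed line at 0.01. No point lies left of the line; the nearest is wild type 6 on a Dll4 probe at 0.0171.

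The other genes of the pathway came from 7 lists of 104 genes in all besides the members, of which 54 were measured. Of these 54, 7 rose and 13 fell, beside 17.9% and 16% of all genes, with a median log2 fold change of -0.07. Groups did not overlap for 3 genes that were higher and 7 that were lower, beside 10.9% and 9.58% of all genes. Mfng, among the lower genes in both counts, passed the detection filter only through wild type arrays. Genes that passed the test are named, and Mib1, Aph1a, Ncstn, Psenen, Maml1, Olfm4, Spdef and Xbp1, which did not pass, were added after their values were seen. Of the other receptors and ligands only the receptor Notch4, known from endothelium, was measured (0.35 ± 0.21 SE, log2, limma adjusted p = 0.225), and it did not pass.

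In the receptor glycosylation, endocytosis and cleavage lists, genes were lower where they passed the test. Over all genes, 16% were lower. Of 5 measured genes of receptor glycosylation 2 fell and 0 rose: Mfng and Rfng, the Fringe enzymes Manic and Radical, which lengthen sugars on Notch and set which ligands it prefers. Mfng read 4.70 to 5.52 in Villin-Gremlin and 5.54 to 7.09 in wild type villi, without overlap. Its probe passed detection on 0 of 5 Villin-Gremlin and 5 of 6 wild type arrays. Mfng was thus kept only through the group where it was high. The lack of overlap and the call (limma adjusted p = 0.00151) are therefore not separate support for a decrease. As a bound, Mfng was at least 1.37-fold lower, from the mean of the wild type arrays over the detection floor of each Villin-Gremlin array. Rfng changed by -0.86 ± 0.25 (log2, SE, limma adjusted p = 0.0182). The 3 others lay between -0.75 and 0.26. The probe of the third Fringe gene, Lfng, was above background on 0 arrays.

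Of 9 measured genes that move or tag Notch and its ligands at the membrane 3 fell and 0 rose. Dtx1, a ubiquitin ligase that binds the Notch intracellular domain and is itself a Notch target in lymphocytes, had the largest decrease of the 54 genes. It read 5.34, 5.44, 6.87, 6.01 and 5.45 in Villin-Gremlin villi, against 7.65, 8.17, 8.28, 8.38, 7.83 and 7.97 in wild type villi (log2), and every Villin-Gremlin array lay below every wild type array. Its log2 fold change was -2.23 ± 0.25 SE (limma adjusted p = 4.24e-05), and the probe passed detection on 2 of 5 Villin-Gremlin and 6 of 6 wild type arrays. Numb, an adaptor that inhibits Notch and is passed to 1 daughter in asymmetric divisions, read 12.02 to 12.38 in Villin-Gremlin and 12.70 to 13.08 in wild type villi and fell by 0.66 on the log2 scale (± 0.11 SE, limma adjusted p = 6.25e-04). Its 5 other measured probes changed by -1.14 to -0.78. Mib2, a ligase that drives ligand uptake, fell by 0.63 (± 0.15 SE, limma adjusted p = 0.00504), while Mib1, the main such ligase in mice, differed by 0.03.

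Of 7 measured genes of Notch cleavage 3 fell and 0 rose. Aph1b, a gamma-secretase subunit, read 5.15 to 6.22 in Villin-Gremlin and 6.53 to 7.53 in wild type villi (log2 fold change -1.31 ± 0.22 SE, limma adjusted p = 6.86e-04), and was above background on 1 of 5 and 6 of 6 arrays. Its counterpart Aph1a differed by 0.02, and the gamma-secretase genes Ncstn and Psenen by -0.06 and -0.25, none of which passed. Adam17, a sheddase that can cut Notch, fell by 0.59 (± 0.13 SE, limma adjusted p = 0.00401), with a second probe at -0.15. Furin, which cuts the receptor during its maturation, fell by 0.53 (± 0.16 SE, limma adjusted p = 0.0221). Its second probe was at -0.01, and the call was lost with the mean of the probes (adjusted p = 0.475) and without Villin-Gremlin 1 or 2 (0.0569 and 0.0581).

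Most measured markers of T cells and intraepithelial lymphocytes were also lower. Of 11 measured markers of 16 listed 10 fell and 0 rose, while of all genes 16% were lower and 17.9% higher. Their summed normalized signal was 7372 to 11347 in Villin-Gremlin and 19184 to 32593 in wild type villi. Thy1 passed detection on 0 of 5 Villin-Gremlin arrays, and Cd8a, Cd247 and Gzmb on 0 of 11 arrays. Of 3 measured macrophage and dendritic cell markers of 9 listed 2 fell and 0 rose. Their summed signals were 289 to 659 in Villin-Gremlin and 1383 to 2530 in wild type villi. Of 6 measured tuft cell markers 4 fell and 0 rose. The part of these cell types in the decreases of Mfng, Dtx1, Aph1b and the other pathway genes was not tested.

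The transcription complex went both ways: of 15 measured genes 4 rose and 1 fell. Fhl1, whose KyoT2 form is known to bind Rbpj and repress it, had the largest increase of the 54 genes, 4.86-fold (log2 fold change 2.28 ± 0.38 SE, limma adjusted p = 5.87e-04). Its brightest probe read 9.13, 9.29, 8.61, 9.12 and 9.36 in Villin-Gremlin villi, against 8.56, 6.33, 6.75, 6.73, 6.83 and 5.71 in wild type villi. That probe passed detection on 5 of 5 Villin-Gremlin and 5 of 6 wild type arrays, and a second measured probe changed by 2.26. Wild type 1 stood above the other wild type arrays, just below the lowest Villin-Gremlin array. Without wild type 1 the log2 fold change was 2.63. Wild type 1 also had the highest summed signal of the 3 measured mesenchyme and smooth muscle markers, 7118, against 115 to 1024 in Villin-Gremlin villi and 394 to 3675 on the other wild type arrays, whose part in the Fhl1 values was not tested. The probe annotation does not say which form of Fhl1 was read.

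Kat2a, an acetyltransferase recruited by Notch, rose by 1.05 (± 0.28 SE, limma adjusted p = 0.0121), and its probe passed detection on 4 of 5 Villin-Gremlin and 1 of 6 wild type arrays. The co-repressor genes Hdac2 and Ctbp2 rose by 0.51 ± 0.13 and 0.48 ± 0.17 (SE, limma adjusted p = 0.00872 and 0.0470). Median scaling ended the call of Hdac2 (adjusted p = 0.190). That of Ctbp2 was lost under 16 of 24 alternatives, among them leaving out Villin-Gremlin 5 together with wild type 1 (0.31, adjusted p = 0.166). Maml2, a Mastermind co-activator, changed by -1.25 ± 0.24 SE (limma adjusted p = 0.00176) and was above background on 1 of 5 Villin-Gremlin and 5 of 6 wild type arrays, while Maml1 was at -0.33 and did not pass.

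**Figure D4:**
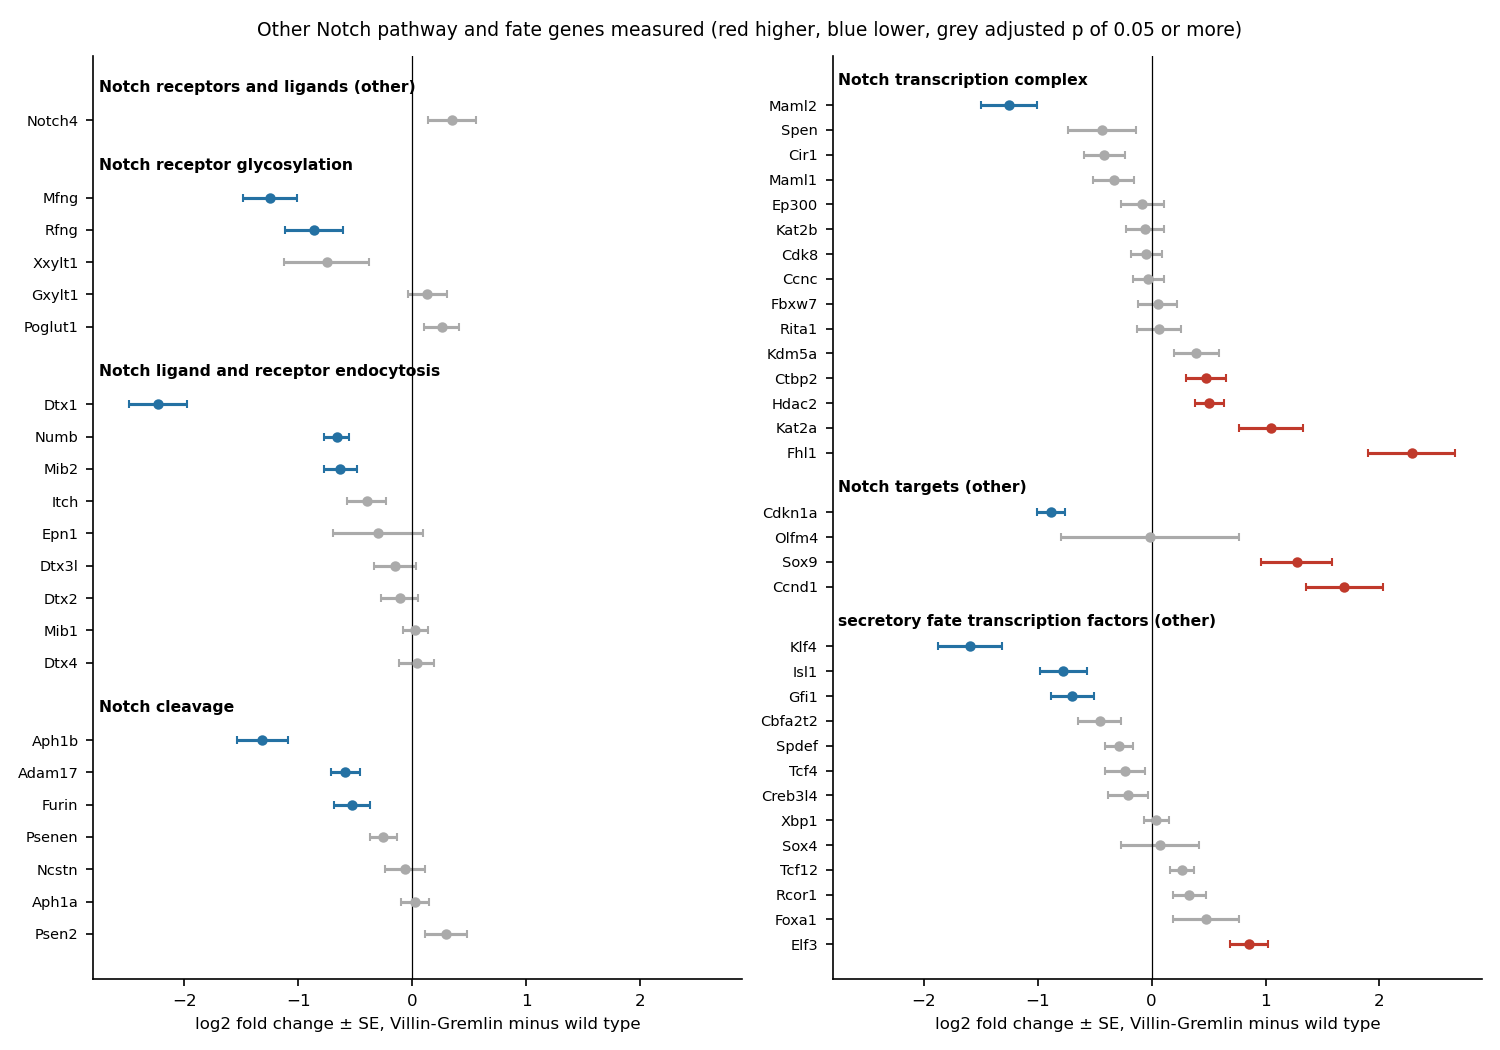
Log2 fold change ± SE (horizontal axis) of the 54 other pathway and fate genes measured, grouped by list, with genes on more than 1 list drawn once; red marks genes that rose, blue genes that fell and grey genes that did not pass. Blue points from -2.23 (Dtx1) to -0.53 (Furin) stand in the glycosylation, endocytosis and cleavage groups, which hold no red point, Mfng is drawn at its fitted value although it is a bound, and Fhl1 at 2.28 is the highest point.

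Other genes reported as Notch targets split. Of 5 measured 2 rose and 2 fell. Ccnd1, which encodes cyclin D1, rose by 1.69 ± 0.34, and Sox9, a factor of crypt progenitors and Paneth cells, by 1.27 ± 0.31 (log2, SE, limma adjusted p = 0.00196 and 0.00741). Ccnd1 was highest on Villin-Gremlin 5 and, among wild type arrays, on wild type 1. Leaving out single arrays gave 1.45 to 1.91 for Ccnd1, and its call was kept. Sox9 read 9.66, 9.78, 10.47, 9.70 and 11.48 in Villin-Gremlin villi, against 9.09, 9.36, 8.66, 8.28, 9.22 and 9.06 in wild type villi, with Villin-Gremlin 5 highest, and its log2 fold change was 0.96 without that array. Cdkn1a, the cell cycle inhibitor p21, fell by 0.88 (± 0.12 SE, limma adjusted p = 1.66e-04), and Dtx1 stands above. Olfm4, a stem cell gene that depends on Notch in the mouse crypt, differed by -0.01 ± 0.78 SE, with Villin-Gremlin 5 at 4.89 and the other Villin-Gremlin arrays at 7.54 to 9.84, against 6.47 to 9.25 in wild type villi. Without Villin-Gremlin 5, a fit chosen after seeing the data, the Olfm4 difference was 0.78 ± 0.56 SE (limma adjusted p = 0.309), and without wild type 1 as well it was 0.46 ± 0.48 SE (0.501). The probes of the classical targets Hes5, Hey1, Hey2 and Heyl were above background on 0 arrays.

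Of 14 other measured transcription factor genes of secretory fate 2 rose and 3 fell. Gfi1, a repressor downstream of Atoh1 that favours goblet and Paneth over enteroendocrine fate, read 5.98 to 6.73 in Villin-Gremlin and 6.79 to 7.69 in wild type villi (log2 fold change -0.69 ± 0.19 SE, limma adjusted p = 0.0126). Isl1, an enteroendocrine factor, fell by 0.77 (± 0.21 SE, limma adjusted p = 0.0118) and was above background on 1 of 5 Villin-Gremlin and 6 of 6 wild type arrays. Klf4, of goblet cells and differentiated villus cells, read 10.46, 10.40, 11.04, 10.98 and 12.17 in Villin-Gremlin villi, against 13.02, 12.62, 12.59, 12.83, 12.45 and 12.11 in wild type villi. Villin-Gremlin 5 alone reached the wild type range, and the log2 fold change of -1.59 ± 0.28 SE (limma adjusted p = 8.82e-04) was -1.88 without it. Sox9, described with the targets, and Elf3, an epithelial ETS factor, rose, Elf3 by 0.85 ± 0.16 (SE, limma adjusted p = 0.00157). Spdef, which matures goblet and Paneth cells, differed by -0.29 ± 0.13 and Xbp1, of secretory endoplasmic reticulum, by 0.04 ± 0.11 (SE), and neither passed. Neurog3, the master factor of enteroendocrine cells, was above background on 1 array.

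Sizes of the dim genes depended on background correction. Without it the log2 fold changes were -0.40 for Mfng, -0.40 for Rfng, -0.96 for Dtx1, -0.46 for Aph1b, -0.39 for Maml2, 0.34 for Kat2a, 0.26 for Ctbp2, 1.32 for Fhl1, -0.30 for Gfi1 and -0.25 for Isl1. That of Ctbp2 no longer passed and the others did.

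The genes whose array-by-array pattern was most like that of the members with a call were found by the root mean square distance between log2 values centred on each gene's mean over the 11 arrays, among 8233 other genes. For Hes1 they were Prmt3, a protein arginine methyltransferase gene (distance 0.21), Msl2, of a histone acetylation complex (0.21), and 2810459M11Rik (0.22), against a median distance of 0.73. They differed between Villin-Gremlin and wild type villi by 1.04, 1.14 and 1.31 (log2). For Hes6 they were Xrcc6, which encodes the Ku70 protein of DNA end joining (0.12), Faap100, of the Fanconi anaemia pathway (0.13), and Mien1 (0.13), against a median of 0.48, with differences of 0.53, 0.36 and 0.63. This is a description of these arrays, in which the difference between the groups contributes to every distance.

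**Figure D5:**
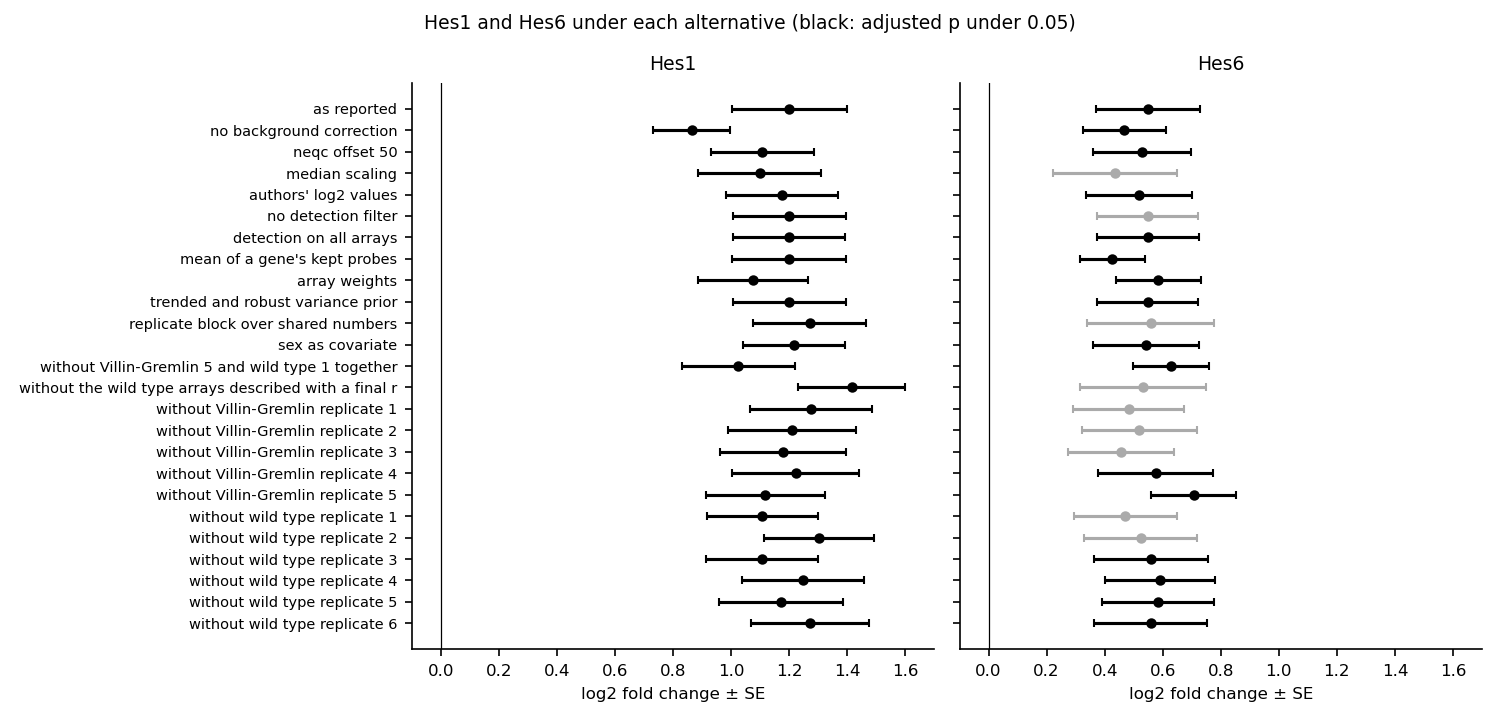
Log2 fold change ± SE (horizontal axis) of Hes1 (left) and Hes6 (right) as reported and under the 24 alternatives, with black for an adjusted p under 0.05 and grey otherwise. Hes1 runs from 0.86 to 1.42 with every point black, and Hes6 from 0.43 to 0.71 with 9 grey points.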

How the data were processed

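For 45281 probes on 11 arrays the authors deposited the average bead intensity, with no background subtraction or normalization, per the file headers. A detection p-value was deposited for every probe and array. They also deposited a table of log2 values of the same arrays whose scale and lack of gene centring were read from its values (array medians 5.04 to 5.13), and whose normalization method and background step are not given in the sources used here. Per the labels' protocols, total RNA was extracted with a Qiagen kit and amplified to biotin-labelled cRNA with an Ambion kit.

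The intensities were background-corrected with negative control values inferred from the detection p-values, quantile-normalized and put on a log2 scale (neqc, offset 16, limma 3.58.1 in R 4.3.3). Probes with a detection p under 0.01 on 5 or more arrays were kept, and the brightest kept probe stood for each gene. Groups were compared with limma's lmFit and eBayes over all genes, with Benjamini-Hochberg adjustment and a threshold of 0.05, and the fit was tested on simulated data. Of the probes, 34885 carried 1 gene symbol in the platform annotation, 18 several and 10378 none. Precision is limited by the 11 arrays. The series' design text gives equal groups, and 5 Villin-Gremlin and 6 wild type arrays were analysed here.

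The 10 members, the lists of pathway genes and markers and the tests were chosen with earlier results of these data known. All members were named, with genes of the pathway and fate lists past the test (up to 6 per list by smallest p) and the 3 genes nearest in pattern to each member past it. Cell type markers are given by counts, and those named were chosen as examples after their values were seen. Pathway genes without a named probe were not analysed here. The 24 alternatives covered background correction, scaling, detection filter, probe choice, variance model, replicate block, sex and left-out arrays. Sex was inferred from the Y-linked probes above background on each array.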

Additional observations from a re-analysis of the deposited data

Results flagged for a closer look

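On Villin-Gremlin 4 the Rbpj probe ILMN_2588315 read 5.24 (log2), while the other Villin-Gremlin arrays read 4.70 to 4.78. The gap to the nearest array was 0.844 of the group's range, above Dixon's critical value of 0.71 for 5 samples. The raw signal of 218 was not above background. Chance gives such a gap in about 5% of groups, and this was 1 of 32 groups of member probe values examined.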

How the results depend on the processing

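Hes1 kept its sign and its call under all 24 alternatives, from 0.86 without background correction to 1.42 without the wild type arrays whose descriptions end in r (limma adjusted p = 2.65e-04 to 0.00253). Leaving out single arrays gave 1.11 to 1.30. Hes6 kept its sign and lost its call with median scaling (0.43), without the detection filter (0.55), with the replicate block (0.56) and without the wild type arrays whose descriptions end in r (0.53), with limma adjusted p = 0.150, 0.0564, 0.0921 and 0.0890. Leaving out single arrays gave 0.46 to 0.71 for Hes6, and the call was lost in 5 of 11 such fits.

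The number of members that changed was thus 1 in place of 2 with median scaling, with the replicate block and without the arrays ending in r, and 1 to 2 when single arrays were left out. Without the detection filter it was again 2, Hes1 and Dll4 (limma adjusted p = 0.0333), although Dll4 was below background on every array. Notch1, Dll1 and Nrarp passed under none of the alternatives run. The genes that rose numbered 919 with median scaling, against 1476. Single arrays left out gave 2383 to 2787 changed genes in all, 1254 to 1531 higher and 1129 to 1288 lower. Of the other pathway genes, 12 in place of 20 passed with detection required on all arrays, where fewer genes were tested. Mfng, Dtx1, Aph1b, Maml2, Kat2a, Fhl1, Gfi1 and Isl1, called in the main fit, were not tested there. When single arrays were left out, 18 to 21 passed. For the other losses the cause was not tested.

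For arrays with the same replicate number in their titles, correlations of the deviations from the group means ran from -0.20 to 0.11. The array descriptions number the Villin-Gremlin arrays differently from the titles, and pairing by the descriptions was not tested. With the replicate block, which used the numbers of the titles, Furin (-0.58) and Kat2a (1.03) also lost their calls. Rfng was lost without the arrays ending in r (-0.69). Probes near background limit Notch1 and prevent any comparison of Notch2, Dll4, Jag1, Rbpj and Atoh1.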

Other observations

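Markers of differentiated secretory cells were measured, although Atoh1 was below background. Of 11 measured goblet cell markers 3 rose and 3 fell, with a median log2 fold change of -0.06. Spink4, a secreted goblet peptide, read 14.06 to 14.37 in Villin-Gremlin and 12.40 to 13.21 in wild type villi (1.42 ± 0.14 SE, limma adjusted p = 1.67e-05), while Clca1, a mucus protein, fell by 0.59 (± 0.17 SE, limma adjusted p = 0.0187). The mucin Muc2 differed by -0.41 ± 0.22 SE and did not pass. Of 6 Paneth cell markers 0 passed. Their summed signal ran from 9271 (Villin-Gremlin 5, with the next at 30922) to 49591 in Villin-Gremlin villi, against 18533 to 47555 in wild type villi.

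Of 15 enteroendocrine markers 3 rose and 2 fell. Tac1, which encodes substance P, read 6.80 to 7.76 in Villin-Gremlin and 5.24 to 6.11 in wild type villi (limma adjusted p = 1.40e-05). Its probe passed detection on 5 of 5 Villin-Gremlin and 1 of 6 wild type arrays. Gcg (proglucagon) rose by 1.41 ± 0.28 SE, whereas Sct (secretin) and Nts (neurotensin) fell by 1.15 and 1.37 (log2, limma adjusted p = 0.00192, 4.77e-04 and 0.00278). Of 6 tuft cell markers 4 fell and 0 rose, and their summed signal was 888 to 1165 in Villin-Gremlin and 1498 to 1728 in wild type villi. Dclk1, a tuft cell kinase, fell by 0.79 (± 0.21 SE, limma adjusted p = 0.0125).

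Of 6 measured crypt stem cell markers 3 rose and 1 fell, and the probes of Lgr5 were above background on 0 arrays. Prom1 and Lrig1 rose by 1.98 ± 0.34 and 1.28 ± 0.17 and Axin2, a Wnt target, fell by 1.84 (log2, SE, limma adjusted p = 7.26e-04, 1.24e-04 and 5.96e-04). These counts stand beside 17.9% of all genes higher and 16% lower.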
